A study of Schizosaccharomyces pombe with 4 samples.

Results

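The genes described are 10 fission yeast genes that mark origins of DNA replication and fire them: orc1, orc2, orc3, orc4, orc5 and orc6, which encode the origin recognition complex (ORC), the firing factor genes sna41 and sld3, and hsk1 and dfp1, which encode a kinase and its activating subunit. They were chosen by gene symbol or older synonym in the platform's probe annotation. All 10 matched, each through 1 probe set, among 2899 Schizosaccharomyces pombe genes with a named probe set. The gene sna41 is listed under its current symbol cdc45 and is called sna41 below. RNA came from 2 cultures of an Atf1-overexpressing strain (Atf1-OP) and from 2 cultures of wild-type cells carrying the empty vector, all labelled as biological replicates and hybridised to Affymetrix yeast arrays. Atf1 is a bZIP transcription factor downstream of the stress-activated kinase Sty1. The sources used here give neither the promoter behind the overexpression nor the growth medium or duration of induction.

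ORC sits on origins through the cell cycle, and in fission yeast its Orc4 subunit holds AT-hook motifs that bind the AT-rich origin DNA. In G1 the loaders Cdc18 and Cdt1 place the MCM helicase on DNA beside ORC, a step known as licensing. The Hsk1-Dfp1 kinase, the counterpart of Cdc7-Dbf4 in budding yeast, then phosphorylates MCM, which lets Sld3 bring in Cdc45 (Sna41), part of the active helicase.

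Values are log2 probe set summaries, quantile-normalized over S. pombe probe sets, and every difference is Atf1-OP minus empty vector. A gene was called when limma's p-value, adjusted over all 2857 tested genes by Benjamini and Hochberg's method, fell under 0.05. Of those genes 293 rose and 318 fell, which is 21.4% in all, against 903 that rose and 116 that fell in the deposited values, where the median gene lay 0.27 higher under Atf1-OP. The atf1 transcript stood at 7.10 ± 0.38 in Atf1-OP and 6.27 ± 0.20 in empty vector cells (SD, n = 2 each), a 1.78-fold rise (limma, adjusted p = 0.0262). That call was lost without Atf1-OP replicate 2 (adjusted p = 0.155), empty vector replicate 1 (adjusted p = 0.109) or empty vector replicate 2 (adjusted p = 0.0621). Added hybridization controls had mean deposited values of 10.98 and 10.78 on the Atf1-OP arrays, against 12.02 and 11.79 on the empty vector arrays. Poly-A controls at the 5′ end had 4.15 and 4.45 against 3.07 and 2.94, a difference of 1.29. That difference was 1.01 for poly-A controls at the middle and 0.27 for those at the 3′ end. The arrays of each group thus also differ in their added controls, and the part of this in the results below was not tested.

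Of the 10 origin genes, 1 was called, beside 21.4% of all tested genes. It was orc5, which fell 1.43-fold, where 11.1% of all tested genes fell. None of the 10 was called higher by limma, where 10.3% of all tested genes rose. At an unadjusted p under 0.05 there were 2 members, orc3 upward and orc5 downward, beside 38.2% of all tested genes. The median difference over the 10 was -0.0017, beside -0.013 for all tested genes, with 5 positive and 5 negative. Sizes were small as well, with a median absolute difference of 0.12 against 0.25 for all tested genes. Every member lay above background on all 4 arrays, background being the 95th percentile of budding yeast probe sets, so none was lost to the filter. The budding yeast probe sets named ORC1 to ORC6, CDC45, SLD3, CDC7 and DBF4 on the same arrays read 1.77 to 2.79 on the deposited scale. They were below background on every array, which was largely fixed in advance, as background was set from budding yeast probe sets.

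**Figure D1:**
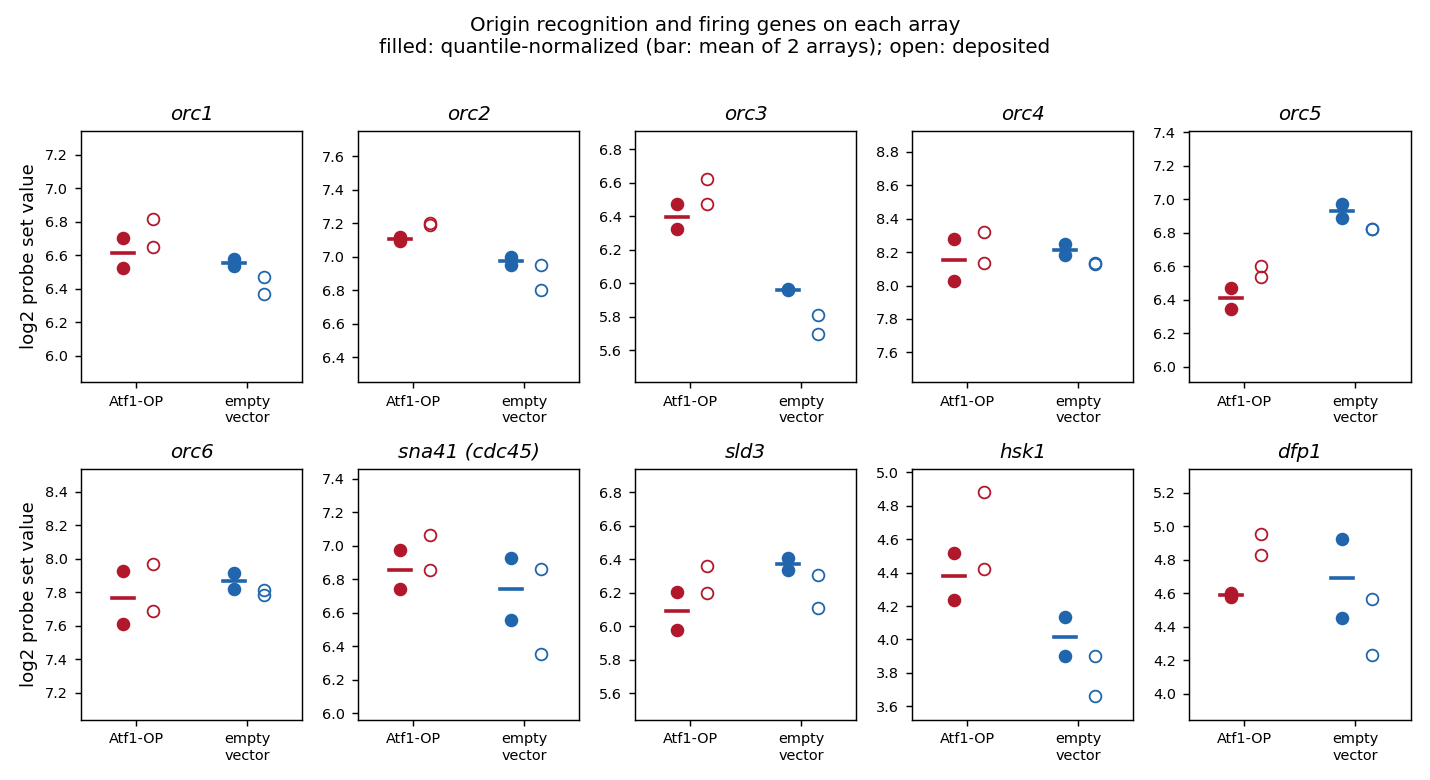
Log2 probe set values of the 10 genes on each array, in Atf1-OP (red, left) and empty vector cells (blue, right), with filled points for quantile-normalized values, a bar for their mean and open points for deposited values. Each panel spans 1.5 log2 units. The Atf1-OP points lie below the empty vector points for orc5 and above them for orc2, orc3 and hsk1 on both scales.

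Fitted differences of the ORC subunit genes ran from -0.52 to 0.44, and whether the subunits differ from each other was not tested. The transcript of orc5 (SPBC646.14C), an ATPase-fold subunit, had normalized values of 6.47 and 6.34 in Atf1-OP, against 6.89 and 6.97 in empty vector cells. Both Atf1-OP arrays were lower than both empty vector arrays, by more than replicates of either group differed. The difference was -0.52 ± 0.13 (SE), with a 95% interval of -0.83 to -0.21 (limma, adjusted p = 0.0308). In terms of rank, orc5 stood at the 41.4 and 38.7 percentiles of S. pombe probe sets in Atf1-OP, against 50.6 and 52.5 in empty vector cells.

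The orc5 call rested on all 4 arrays. Leaving out Atf1-OP replicate 1 gave an adjusted p of 0.0549, Atf1-OP replicate 2 gave 0.120, empty vector replicate 1 gave 0.103 and empty vector replicate 2 gave 0.159, with differences from -0.58 to -0.46. The deposited orc5 values were 6.60 and 6.53 in Atf1-OP, against 6.83 and 6.82 in empty vector cells. They too did not overlap, but the difference of -0.25 was not called (limma, adjusted p = 0.172). The median of all tested genes stood at 0.27 on that scale. Median centring kept the call, at -0.47 (limma, adjusted p = 0.0272), and a fit without trend lost it (adjusted p = 0.0530).

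The transcript of orc3 (SPAC3H1.01C), a subunit of the ORC core, leaned the other way. Its normalized values were 6.32 and 6.47 in Atf1-OP, against 5.96 and 5.97 in empty vector cells. The groups did not overlap, and the gap of 0.15 between the Atf1-OP replicates was well under the difference of 0.44 ± 0.15 (SE). It missed the threshold (limma, adjusted p = 0.0719), with a 95% interval of 0.094 to 0.78, which is 1.07-fold to 1.71-fold. With median centring orc3 was called at 0.57 (adjusted p = 0.0186) and in the deposited values at 0.79 (adjusted p = 0.00966). Its direction was the same in every alternative run, with differences from 0.36 to 0.51 when 1 array was left out.

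Set against each other within an array, orc3 and orc5 give a contrast that no shift of a whole array can alter. The deposited log2 value of orc3 minus that of orc5 was -0.13 and 0.086 on the Atf1-OP arrays, against -1.01 and -1.12 on the empty vector arrays. The change between groups was 1.05, and the arrays of a group differed by far less. With normalized values the change was 0.96. The offset itself carries no information on which transcript is more abundant, since probe sets differ in brightness. The pair was chosen after the values were seen. Of the 10 genes, orc3 has the highest and orc5 the lowest fitted difference, so a wide contrast was fixed by that choice. It restates the differences given above and adds no support to them.

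**Figure D2:**
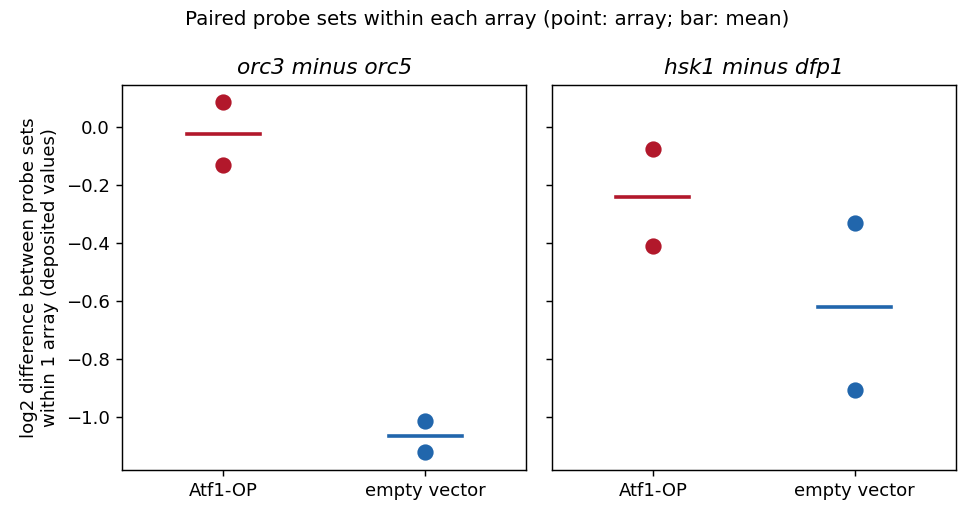
Deposited log2 value of 1 probe set minus another on the same array, for orc3 minus orc5 and for hsk1 minus dfp1, with a point per array and a bar for the mean of each group. The orc3 and orc5 offset is near 0 on the Atf1-OP arrays and near -1.1 on the empty vector arrays, while the hsk1 and dfp1 offsets of the groups overlap.

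The other ORC subunits changed less than the test could resolve. For orc2 (SPBC685.09), a core subunit, the values were 7.12 and 7.09 in Atf1-OP, against 7.001 and 6.951 in empty vector cells, without overlap but with a difference of 0.13 (limma, adjusted p = 0.449). For orc1 (SPBC29A10.15), the ATPase subunit related to the loader Cdc18, they were 6.53 and 6.70 in Atf1-OP, against 6.53 and 6.58 in empty vector cells, a difference of 0.059 with overlap (adjusted p = 0.788). Its sign turned to -0.029 without Atf1-OP replicate 2. The 95% intervals allow folds of 0.904 to 1.32 for orc2 and 0.834 to 1.30 for orc1.

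The AT-hook subunit gene orc4 (SPBP23A10.13) had 8.28 and 8.03 in Atf1-OP, against 8.18 and 8.25 in empty vector cells, so the empty vector values lay between those of the Atf1-OP replicates. Its difference was -0.062 (limma, adjusted p = 0.722), with an interval of 0.798-fold to 1.15-fold. The values of orc6 (SPBC2A9.12), the smallest subunit's gene, were 7.93 and 7.61 in Atf1-OP, against 7.82 and 7.91 in empty vector cells, again nested. Its difference was -0.099 (adjusted p = 0.610), with an interval of 0.757-fold to 1.15-fold. Both signs were positive in the deposited values, at 0.094 for orc4 and 0.028 for orc6, below the 0.27 of the median gene. With median centring both stayed negative, at -0.12 for orc4 and -0.19 for orc6. Without Atf1-OP replicate 2 both turned positive, at 0.063 for orc4 and 0.060 for orc6.

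Neither gene of the Sld3 and Cdc45 step was called. For sld3 (SPAC24H6.06), whose product recruits Cdc45, the values were 6.20 and 5.98 in Atf1-OP, against 6.41 and 6.34 in empty vector cells. The normalized groups did not overlap, and the difference was -0.28 ± 0.15 (SE; limma, adjusted p = 0.213). In the deposited values the sld3 groups overlapped and the sign was positive, at 0.071, which is below the 0.27 of the median gene. For sna41 (SPAC17D4.02), the helicase component, the values were 6.97 and 6.74 in Atf1-OP, against 6.92 and 6.55 in empty vector cells. The empty vector replicates of sna41 differed by 0.37, more than the difference of 0.12 between groups (adjusted p = 0.639), and the sign turned to -0.067 without empty vector replicate 2.

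The kinase genes lay closest to background among the 10 and depended most on scaling. The catalytic subunit gene hsk1 (SPBC776.12C) had normalized values of 4.24 and 4.52 in Atf1-OP, against 4.13 and 3.90 in empty vector cells. The groups did not overlap, but the difference of 0.36 ± 0.21 (SE) was not called (limma, adjusted p = 0.246), with an interval of -0.13 to 0.85. With median centring it was 0.65 (adjusted p = 0.0485) and in the deposited values 0.87 (adjusted p = 0.0255), called in both. On the deposited scale hsk1 lay 1.68 and 2.19 above background in Atf1-OP and 0.84 and 0.50 above it in empty vector cells. Background itself was lower in Atf1-OP, at 2.74 and 2.69, against 3.06 and 3.16 in empty vector cells, and its part in the hsk1 values was not tested.

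The activating subunit gene dfp1 (SPCC550.13) had normalized values of 4.58 and 4.60 in Atf1-OP, against 4.45 and 4.92 in empty vector cells. The Atf1-OP values lay between those of the empty vector replicates, which differed by 0.47. Its difference was -0.100 (limma, adjusted p = 0.769), and its sign turned with median centring, at 0.27 (adjusted p = 0.377), and in the deposited values, at 0.49 (adjusted p = 0.0964). No direction can therefore be given for dfp1. Within an array, hsk1 minus dfp1 was -0.41 and -0.074 in Atf1-OP, against -0.33 and -0.91 in empty vector cells on the deposited scale, so the subunits' balance overlapped between groups.

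**Figure D3:**
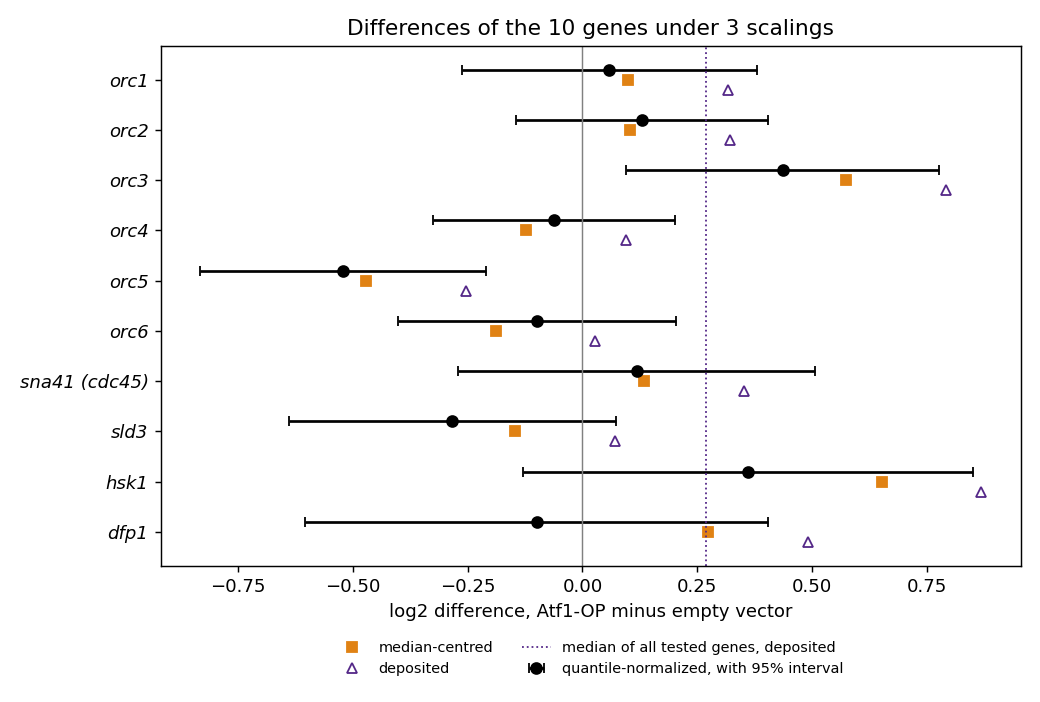
Log2 difference, Atf1-OP minus empty vector, of each gene with quantile-normalized values (black, with limma's 95% interval), median-centred values (orange squares) and deposited values (open triangles). The dotted line marks 0.27, the median of all tested genes in the deposited values. The orc5 points lie left of 0 under all 3 scalings and those of orc1, orc2, orc3, sna41 and hsk1 right of it. Those of dfp1, orc4, orc6 and sld3 change sides.

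Over the 10 genes the groups did not overlap for 5 in normalized values, 3 higher and 2 lower, beside 66.3% of all tested genes, 31.9% higher and 34.4% lower. In the deposited values they did not overlap for 6, 5 higher and 1 lower, beside 74.1% of all tested genes, 60.1% higher and 14% lower. The members called were 2 higher and 0 lower in the deposited values, orc3 and hsk1, where 35.7% of all genes were called, 31.6% higher and 4.06% lower. With median centring orc3 and hsk1 were called higher and orc5 lower, where 27.9% of all genes were called, 15.9% higher and 12% lower. The medians of the 10 were 0.32 in the deposited and 0.10 in the median-centred values, beside 0.27 and 0.052 for all tested genes.

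Other steps of replication were described through 61 further genes in 6 lists, 59 of them tested. The gene pol1 did not pass the background filter and dpb3 was not analysed here. Of the 59, 5 rose and 2 fell, which is 11.9% against 21.4% of all tested genes. That order turned in the deposited values, where 24 were called higher and 0 lower, 40.7% against 35.7% of all genes. With median centring 11 were called higher and 3 lower, 23.7% against 27.9% of all genes. The rises were those of 3 licensing genes and 2 cyclin genes, and the falls those of cul4 and swi3. The lists were not tested against each other.

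Among the 9 licensing genes 3 passed, all upward, where 10.3% of all tested genes rose, and the median difference was 0.50. At an unadjusted p under 0.05 there were 4 of the 9, beside 38.2% of all tested genes. With median centring 6 were called higher, with a median of 0.79, and in the deposited values 8, with a median of 1.01, and none was called lower in either. Of all tested genes 15.9% were called higher with median centring and 31.6% in the deposited values. The loader gene cdc18 had 6.10 and 6.49 in Atf1-OP, against 4.45 and 4.75 in empty vector cells, a difference of 1.70 ± 0.21 (SE; limma, adjusted p = 0.00416). The helicase subunit gene mcm3 rose by 1.18 ± 0.21 (SE; adjusted p = 0.0119) and cdc23, which encodes Mcm10, by 0.63 ± 0.16 (SE; adjusted p = 0.0271). The 9 differences were all positive, the lowest being 0.19 for mcm7. Those of cdt1, the partner loader, at 0.85 (adjusted p = 0.105) and mcm4 at 0.50 (adjusted p = 0.172) did not pass. With median centring both were called, cdt1 at 1.06 (adjusted p = 0.0192) and mcm4 at 0.79 (adjusted p = 0.0210), as they were in the deposited values, at 1.28 (adjusted p = 0.0310) and 1.01 (adjusted p = 0.0235). The cdt1 probe set was above background on 1 of the empty vector arrays. The cdc18 call held whichever array was left out. The mcm3 call was lost without Atf1-OP replicate 1 (adjusted p = 0.0753) or replicate 2 (adjusted p = 0.0790), and that of cdc23 was lost in each of the 4 cases (adjusted p from 0.0649 to 0.134).

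Of 6 other firing factor genes, which encode Drc1 (Sld2 in budding yeast), Rad4 and the GINS subunits, 0 passed in limma, and 0 had an unadjusted p under 0.05. Of all tested genes 21.4% passed and 38.2% had such an unadjusted p. Differences of the 6 firing factor genes ran from -0.23 for rad4 to 0.28 for drc1. Their median was 0.017, beside -0.0017 for the origin genes and -0.013 for all tested genes. The GINS gene psf3 stood at -0.22 (limma, adjusted p = 0.163) and rad4 at -0.23 (adjusted p = 0.248). Of the 6, 3 were called higher in the deposited values, and with median centring 0, beside 31.6% and 15.9% of all tested genes.

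Of 9 genes for the S-phase cyclin-dependent kinase and its control, 2 rose, 1 fell and 6 did not pass. Of all tested genes 10.3% rose and 11.1% fell. An unadjusted p under 0.05 was found for 4 of the 9, beside 38.2% of all tested genes. In the deposited values 4 of the 9 were called higher and 0 lower, beside 31.6% and 4.06% of all tested genes. With median centring 3 were called higher and 1 lower, beside 15.9% and 12% of all tested genes. The S-phase cyclin gene cig2 rose by 1.48 ± 0.18 (SE; limma, adjusted p = 0.00432), and that call held whichever array was left out. The G1 cyclin gene puc1 rose by 0.62 (adjusted p = 0.0128), though not without Atf1-OP replicate 2 (adjusted p = 0.0583), empty vector replicate 1 (adjusted p = 0.0520) or empty vector replicate 2 (adjusted p = 0.111). The cullin gene cul4, part of the ligase that degrades Cdt1, fell by 0.79 (adjusted p = 0.0146), though not without Atf1-OP replicate 2 (adjusted p = 0.0794) or empty vector replicate 1 (adjusted p = 0.0744), nor in the deposited values (adjusted p = 0.0588). The substrate receptor gene of that ligase, cdt2, stood at 0.67 (adjusted p = 0.0585), and was called with median centring, at 0.96 (adjusted p = 0.00564), and in the deposited values, at 1.18 (adjusted p = 0.00689). It was followed by the kinase inhibitor gene rum1, at -0.38 (adjusted p = 0.177), with 0.21 for rum1 in the deposited values.

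Of 24 tested genes for polymerases and fork proteins, swi3, of the fork protection complex, fell by 0.50 (limma, adjusted p = 0.0317) and 23 did not pass. Its normalized values were 9.17 and 8.76 in Atf1-OP, against 9.46 on both empty vector arrays. The equal empty vector values, set by the normalization, hide their spread. The deposited values on those arrays were 9.353 and 9.333. The gene swi3 was not called without either empty vector array, nor in the deposited values (limma, adjusted p = 0.0775). Next in order were the primase gene spp2 at -0.40 (limma, adjusted p = 0.0619) and cdc20, the catalytic subunit of polymerase epsilon, at 0.39 (adjusted p = 0.0627). The share called was 4.17%, beside 21.4% of all tested genes. At an unadjusted p under 0.05 there were 7 of the 24, beside 38.2% of all tested genes. Those lower were swi3, spp2, cdc1 (-0.44), cdm1 (-0.56), cdc27 (-0.39) and rfc4 (-0.26), and cdc20 was higher. In the deposited values 4 of the 24 were called higher, cdc20 among them (limma, adjusted p = 0.0133), and 0 lower, beside 31.6% and 4.06% of all tested genes. With median centring 0 were called higher and 2 lower, beside 15.9% and 12% of all tested genes.

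None of the 7 genes for origin timing and for phosphatases set against the Hsk1-Dfp1 kinase passed in limma, and 1 had an unadjusted p under 0.05. The shares over all tested genes were 21.4% and 38.2%. The heterochromatin protein gene swi6, whose product is known to bind Dfp1, stood at 0.69 (limma, adjusted p = 0.113) and the telomere protein gene taz1 at 0.30 (adjusted p = 0.140). In the deposited values 3 of the 7 were called higher, beside 31.6% of all tested genes. Among the 3 were swi6 at 1.20 (limma, adjusted p = 0.0189) and taz1 at 0.55 (adjusted p = 0.0221). With median centring 1 of the 7 was called higher, swi6 at 0.98 (limma, adjusted p = 0.0122), beside 15.9% of all tested genes. Of the 4 checkpoint genes 0 passed in limma and 0 had an unadjusted p under 0.05, beside 21.4% and 38.2% of all tested genes. The mediator gene mrc1 stood at 0.56 (limma, adjusted p = 0.140) and the kinase gene cds1 at -0.16 (adjusted p = 0.229). Of the 4, 2 were called higher in the deposited values and 1 with median centring, beside 31.6% and 15.9% of all tested genes. The gene mrc1 was called in both, at 0.91 (limma, adjusted p = 0.0217) and 0.69 (adjusted p = 0.0263). The sign of cds1 was positive in the deposited values, at 0.076. RNA came from whole cultures, so a change in the share of cells at a cell cycle stage and a change in RNA per cell cannot be told apart for any of these genes.

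**Figure D4:**
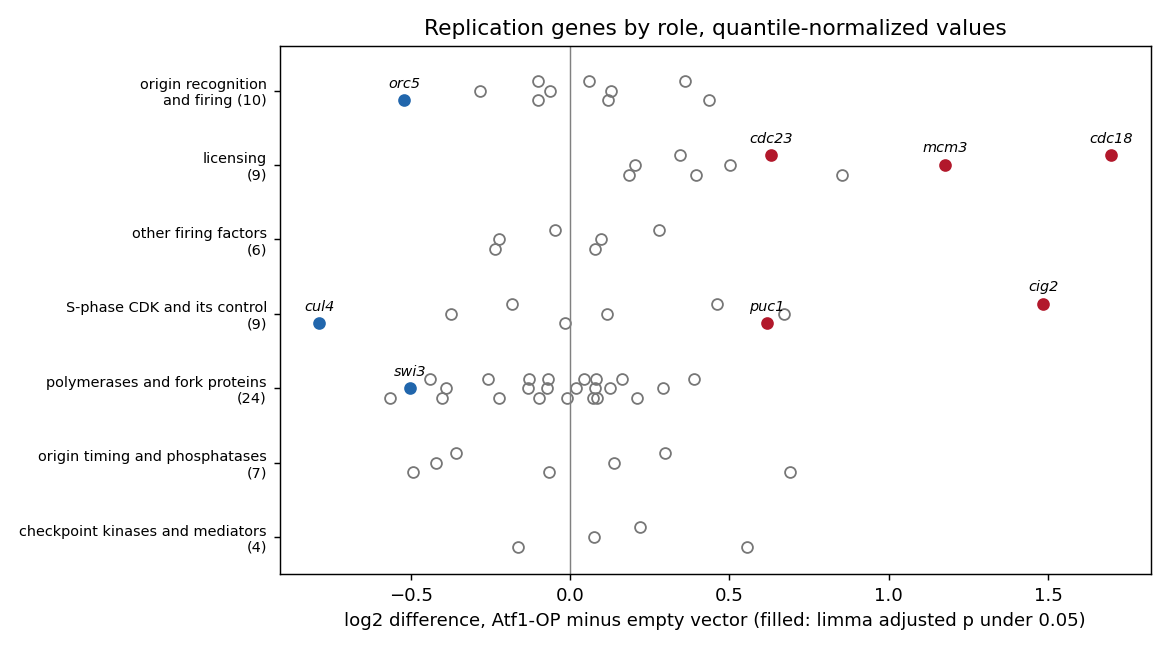
Log2 difference, Atf1-OP minus empty vector, of the 10 origin genes and of 59 other replication genes grouped by role, from quantile-normalized values, with the number tested in brackets. Filled and named points were called by limma (red higher, blue lower), open points were not. The licensing genes all lie right of 0, with cdc18 at 1.70, while the origin genes spread from -0.52 to 0.44.

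The profile of orc5, the member with the largest fitted difference, was set against all other tested genes by Euclidean distance between normalized values centred on each gene's mean, over 4 arrays. The nearest were sec31 of the vesicle coat (distance 0.012), the mRNA 3′-end processing gene yth1 (0.019) and the nuclear pore gene nup85 (0.031). Their differences were -0.52, -0.53 and -0.50. With 4 arrays many genes share such a profile, and nothing further is read from it.

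No members were neighbours of each other in the gene table. Of their 20 protein-coding neighbours 13 were tested, of which 4 rose and 0 fell, beside 10.3% of all tested genes that rose and 11.1% that fell. Whether the neighbours differ from other genes was not tested. Beside orc5 lies sds23, which stood at -0.17 (limma, adjusted p = 0.260) and was not called. The neighbours that rose were pex7 beside sna41 (0.74, adjusted p = 0.0120), vgl1 beside dfp1 (0.61, adjusted p = 0.0224), css1 beside orc2 (0.36, adjusted p = 0.0430) and rps901 beside sld3 (0.34, adjusted p = 0.0190). The member beside each of them did not pass. After normalization pex7 had the same value, 10.68, on both empty vector arrays, which hides their spread. The neighbour calls were not followed through the alternative settings.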

How the data were processed

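The authors deposited log2 values, 1 per probe set and array, which ran from 1.46 to 14.0. The log2 scale was judged from that range. Per the labels, biotinylated cRNA from total RNA was hybridised to Affymetrix arrays. The sources used here name no summarisation, normalization or genome build.

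The table held 10928 probe sets. Names came from the platform annotation, updated by gene ID through RefSeq's table for ASM294v3. This named 2917 S. pombe probe sets of 2899 genes (the brightest was kept) and 2593 of S. cerevisiae, with 5224 unnamed and not analysed here.

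Quantile normalization was run over the S. pombe probe sets. Genes above background on at least 2 of the 4 arrays were kept, giving 2857. The comparison used limma 3.58.1 (lmFit, eBayes with trend, Benjamini-Hochberg; R 4.3.3). Tested on simulated arrays of this comparison (2857 genes, 200 of them changed), it recovered 36.7% of 1.5-fold and 73.1% of 2-fold changes, and 4.94% of calls were false. The simulation shuffled SDs among genes, changed fewer genes than were called here and added no shift between the groups' arrays. These rates therefore need not hold for the real arrays.

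The members, lists, alternatives and tests were chosen with earlier results of these data known. All members were named, and from each list every gene that passed and up to 2 others with the smallest p. Also named by the rule were atf1 and the 3 profiles most like the member with the largest difference. The genes mcm7, drc1, pol1, dpb3, cdc1, cdm1, cdc27, rfc4, sds23, pex7, vgl1, css1 and rps901 were named after their values were seen. Arrays per group, 2, limit the precision. Figures were drawn with matplotlib 3.10.9.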

Additional observations from a re-analysis of the deposited data

How the results depend on the processing

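In all, 14 alternatives were run. Genes called numbered 611, against 1019 with the deposited values, 178 without trend, 933 at an adjusted p under 0.1 and 115 to 638 with 1 array left out. Members called higher numbered 0, against 2 with the deposited values, 2 with median centring and 1 at an adjusted p under 0.1. Members called lower numbered 1, against 0 with the deposited values, 0 without trend and 0 in each fit without 1 array. The members' median of -0.0017 became 0.32 with the deposited values and 0.10 with median centring, while that of all tested genes, -0.013, became 0.27 and 0.052. Other replication genes called numbered 7, against 24 with the deposited values (24 higher), 14 with median centring (11 higher and 3 lower), 13 with the replicate block, 13 at an adjusted p under 0.1 and 3 to 6 with 1 array left out: 3 without Atf1-OP replicate 2 and 3 without empty vector replicate 1.

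Signs turned with the deposited values for dfp1 (0.49), orc4 (0.094), orc6 (0.028), sld3 (0.071), rum1 (0.21), cds1 (0.076) and cdm1 (0.0016). With median centring the sign turned for dfp1 (0.27). With 1 array left out, differences ran from -0.34 to 0.14 for dfp1, -0.029 to 0.15 for orc1, -0.19 to 0.063 for orc4, -0.26 to 0.060 for orc6 and -0.067 to 0.30 for sna41 (cdc45). A looser threshold can only add calls, and the cause of the other changes, those under fewer arrays included, was not tested. Without trend the calls of atf1 (adjusted p = 0.0687) and swi3 (adjusted p = 0.0996) were lost. Over the 10 members, 119 of 140 values kept their direction and side of the threshold. Alternatives that changed only the filter, trend, probe set rule, block or threshold could not alter a member's difference, so its direction was fixed there.

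The labels do not say that replicate numbers pair the cultures, and deviations of same-numbered arrays correlated at 0.038 across genes. With the replicate number as a block, 848 genes were called, among the members orc5 (adjusted p = 0.00823), and orc3 had an adjusted p of 0.0551. With 2 arrays per group, hsk1 and dfp1, close to background, were measured least firmly.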
